A study of Arabidopsis thaliana with 15 samples.

Results

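The 10 phosphate starvation genes followed here were SPX1, SPX2, SPX3, IPS1, PHT1;4, PAP17, PS2, MGD3, SQD2 and PLDZ2, chosen by their locus numbers as markers of the response of Arabidopsis to low phosphate. All 10 were rows of a table of read counts for 32833 genes, and 8 of the 10 passed the filter on low counts that left 19663 genes for testing. The question asked of them was whether any of the transgenic or mutant lines of the study looked starved of phosphate. SPX3 and IPS1 were too rarely counted to be tested, and their counts are given in full.

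The samples were whole rosettes at day 28, grown in soil, with 3 biological replicates of each of 5 lines in the Col-0 background. All 5 lines carried pGLDPA::RbcS.TP-sGFP, a reporter that marks the bundle sheath with GFP, and the reference line carried nothing else. In activation-tagged plants, a promoter of the GLDT gene of Flaveria trinervia had landed within the coding region of the transcription factor gene NAC052. The CRISPR/Cas line had a frameshift in the first exon of NAC052. Lines named GLDT::5'truncatedNAC052 or GLDT::NAC052 expressed a shortened or an entire NAC052 coding sequence from the GLDT promoter, which is active in the leaf bundle, beside the endogenous gene. Whether these plants were first-generation or later transformants is not given in the sources used here, and the study describes a loss of the leaf phenotype after the first generation, so that how far the transgenes acted in the sequenced plants is uncertain. The labels describe no low-phosphate treatment, so that the data hold no starved sample as a yardstick.

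Plants short of phosphate switch on a set of genes under the transcription factor PHR1, whose activity is held back by SPX proteins when phosphate and inositol pyrophosphates are plentiful. The set takes up phosphate with PHT1 transporters, frees it from organic compounds with phosphatases, and replaces phospholipids of the membranes with galactolipids and sulfolipids. The non-coding RNA IPS1 belongs to the same set and sequesters the microRNA miR399, which otherwise directs the loss of the PHO2 transcript.

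The sequences that define this regulation were read from the RefSeq genome TAIR10.1. Of 7 mature miR399 sequences annotated there, 6 shared the seed at bases 2 to 8. The miR399b sequence (chr1:23345387-23345407, minus strand) and the site in IPS1 that pairs with it (chr3:3051224-3051247, plus strand) are shown because IPS1 acts through this pairing. The capitals mark the seed in miR399b, and in IPS1 the 3 bases that loop out opposite the position where a cleaved target would be cut.
miR399b: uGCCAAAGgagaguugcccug
IPS1 site: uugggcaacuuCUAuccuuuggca
Outside the loop, 18 of the 21 bases of miR399b were complementary to the site, with 10 of 10 in the part that faces the 5′ end of the microRNA.

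PHR1 binds the motif named P1BS, spelled GNATATNC, which reads as a match on either strand alike. It was searched in the 500 bases upstream of each annotated gene start. Of the members, 4 of 10 held a match, and 10.4% of the windows of 37876 nuclear genes did. The matches are shown, with the motif in capitals and on the strand of the gene, because they are the only ones in the windows of these members.
SPX3 distal (chr2:18606186-18606215, plus strand): tattagagaccGAATATGCcagaggatttg
SPX3 proximal (chr2:18606309-18606338, plus strand): gctaaagctaaGCATATCCgctttcatatt
PLDZ2 (chr3:1635003-1635032, plus strand): gtaaccaagttGCATATACacggcagggta
SQD2 (chr5:90439-90468, minus strand): ttatgtgaagcGAATATTCattggaataga
PS2 (chr1:27466547-27466576, minus strand): tttgggtaacgGAATATTCttctcttattc
The motif began 213 and 90 bases upstream of SPX3, 180 bases upstream of PLDZ2, 340 bases upstream of SQD2 and 217 bases upstream of PS2. Absence of the letters from the other windows says nothing about sites elsewhere.

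Library totals ran from 28074380 to 38579309 counts. Values are given as CPM, counts per 1000000 counts of the library, its total first adjusted by the trimmed mean of M values (TMM), and 3 counts, taken as the floor, corresponded to between 0.0705 and 0.118 CPM. By the file headers, lane 1 held 6 libraries, those of activation-tagged and reference plants, and lane 8 the other 9, so that for the other 3 lines lane and line cannot be told apart in a comparison with the reference line. NAC052 itself was counted at 64.0, 61.7 and 80.0 CPM in activation-tagged plants, at 22.2, 20.1 and 22.6 CPM in CRISPR/Cas plants, at 25, 66.0 and 52.5 CPM in GLDT::5'truncatedNAC052 plants, at 280, 27.2 and 165 CPM in GLDT::NAC052 plants and at 19.7, 20.6 and 19.5 CPM in reference plants. GLDT::NAC052 replicate 2 and GLDT::5'truncatedNAC052 replicate 1 thus held far less NAC052 than the other libraries of their lines, and the members called in those lines are also given without them. Replicate 3 of each of these 2 lines also stood further from its own line than any other library did. Leaf markers dominated all libraries, with 6 genes summing to between 41857 and 66845 CPM, whereas 10 root markers summed to at most 3.66 CPM.

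IPS1 and SPX3, whose transcripts are known to be scarce unless phosphate is short, had at most 5 counts in any library. IPS1 (AT3G09922, chromosome 3, 3050989 to 3051530) was counted 2 times in all 15 libraries together. Both counts came from CRISPR/Cas replicate 2, at 0.047 CPM, and the other 14 libraries had none. That library also had the highest sum of root markers, 3.66 CPM, of which the single marker PYK10 made up 3.38 CPM. The part of root material in the IPS1 counts was not tested. SPX3 (AT2G45130, chromosome 2, 18606410 to 18607853), a member of the SPX family of phosphate sensors, had 20 counts in all. There were 0, 0 and 0 SPX3 counts in activation-tagged plants, 0, 1 and 1 in CRISPR/Cas plants, 1, 0 and 0 in GLDT::5'truncatedNAC052 plants, 0, 5 and 2 in GLDT::NAC052 plants, and 2, 3 and 5 in reference plants. The reference line thus held 10 of the 20 SPX3 counts, and no other line had as many.

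Neither SPX1 nor SPX2 passed edgeR's test in any of the 4 comparisons with the reference line. SPX1 (AT5G20150, chromosome 5, 6802282 to 6803655), an inhibitor of PHR1 that is itself a PHR1 target, was at 3.45, 4.84 and 4.34 CPM in activation-tagged plants and at 3.99, 4.14 and 3.8 CPM in reference plants. It was at 3.79, 6.01 and 4.93 CPM in CRISPR/Cas plants, and at 4.14, 3.79 and 4.13 CPM in GLDT::5'truncatedNAC052 plants. Only in GLDT::NAC052 plants, with 6.11, 4.55 and 5.05 CPM, did all libraries lie above those of the reference line. That log2 fold change of 0.40 (SE 0.177) did not pass the test of edgeR (adjusted p = 0.0993), and its approximate 95% interval ran from 0.05 to 0.74. For SPX2 (AT2G26660, chromosome 2, 11338752 to 11340950), another inhibitor of PHR1, means were 11 ± 0.68 CPM in activation-tagged plants, 11.6 ± 0.36 CPM in CRISPR/Cas plants, 12.3 ± 1.75 CPM in GLDT::5'truncatedNAC052 plants, 12.2 ± 0.558 CPM in GLDT::NAC052 plants and 10.8 ± 1.15 CPM in reference plants (SD, n = 3 each). Its log2 fold changes against the reference line lay between 0.02 and 0.18, and none of the 4 intervals reached above 0.40, although the 3 libraries of the GLDT::NAC052 line all exceeded every reference library.

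The transporter PHT1;4 (AT2G38940, chromosome 2, 16257157 to 16260253), a plasma membrane importer of phosphate, rose in GLDT::NAC052 plants. It was at 4.70, 3.19 and 5.88 CPM there and at 1.97, 1.25 and 2.82 CPM in reference plants, so that the groups did not overlap. The log2 fold change was 1.19 (SE 0.299, edgeR adjusted p = 0.00764), and without GLDT::NAC052 replicate 2, the library low in NAC052, it was 1.40 (adjusted p = 0.00412). The other lines overlapped the reference line, with means of 2.21 ± 0.284 CPM in activation-tagged plants, 2.51 ± 0.544 CPM in CRISPR/Cas plants and 2.76 ± 0.688 CPM in GLDT::5'truncatedNAC052 plants (SD, n = 3 each). The 10 root markers summed to between 1.00 and 1.17 CPM in GLDT::NAC052 plants, where 3 of them were at 0, and to between 0.249 and 0.422 CPM in reference plants, where 4 were at 0. The part of root material in the PHT1;4 values was not tested. The PHT1 genes are similar in sequence, and how reads that match several of them were assigned is not given in the sources used here. Its relatives PHT1;1, PHT1;2, PHT1;3, PHT1;6, PHT1;7, PHT1;8 and PHT1;9 had at most 10 counts in any library, all 10 of them for PHT1;1 in GLDT::NAC052 replicate 3. PHT1;5 was the only other PHT1 gene to pass the filter, with at most 24 counts in a library and 190 in all, and was not called in any comparison with the reference line.

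**Figure D1:**
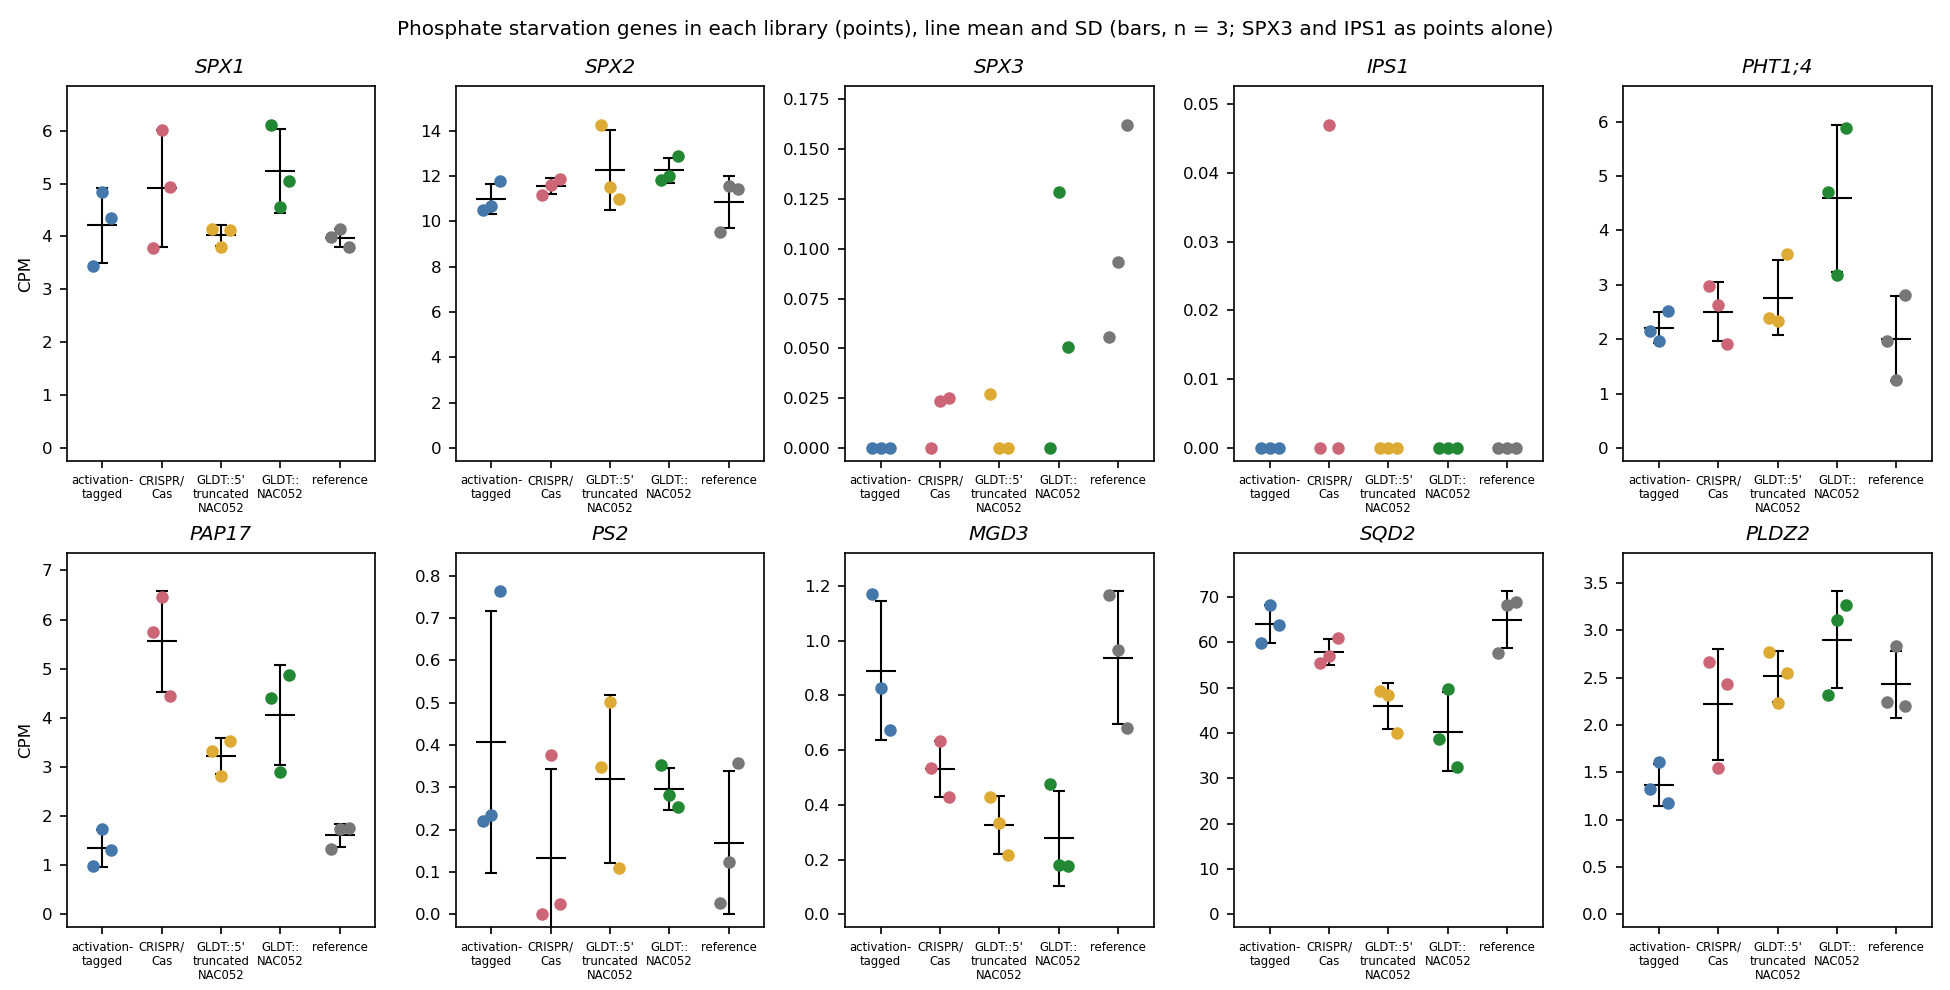
Level of each of the 10 phosphate starvation genes in CPM (vertical axes, each with its own range starting near 0) in the 3 libraries of each line. Points are libraries, and bars the mean and SD of the line, left out for SPX3 and IPS1. PAP17 lies between 4.45 and 6.46 CPM in CRISPR/Cas plants and between 1.33 and 1.75 CPM in reference plants, and IPS1 is at 0 in 14 of 15 libraries.

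PAP17 was the member that differed most often. PAP17 (AT3G17790, chromosome 3, 6089381 to 6091231) encodes a purple acid phosphatase known to respond to phosphate starvation and also to senescence and hydrogen peroxide. It was at 5.76, 6.46 and 4.45 CPM in CRISPR/Cas plants, at 3.33, 2.82 and 3.53 CPM in GLDT::5'truncatedNAC052 plants and at 4.40, 2.91 and 4.87 CPM in GLDT::NAC052 plants, against 1.33, 1.74 and 1.75 CPM in reference plants. Every library of these 3 lines lay above every reference library. The activation-tagged line, with 0.98, 1.73 and 1.32 CPM, overlapped the reference line and had a log2 fold change of -0.27 (SE 0.257). It shared lane 1 with the reference line, and the 3 lines above them were in lane 8. For the rise of PAP17 over the reference line, lane and line therefore cannot be told apart.

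In edgeR's quasi-likelihood test PAP17 rose 3.46-fold in CRISPR/Cas plants (log2 fold change 1.79, SE 0.242, adjusted p = 0.000329) and 2.53-fold in GLDT::NAC052 plants (1.34, SE 0.242, adjusted p = 0.00105). Without its replicate 2 the value in GLDT::NAC052 plants was 1.53 (adjusted p = 0.000573). In GLDT::5'truncatedNAC052 plants it rose 2.01-fold (log2 fold change 1.01, SE 0.243, adjusted p = 0.0309), but the call was lost when any library except replicate 2 of that line was left out, with adjusted p between 0.0603 and 0.114 and 0.065 without replicate 1. PAP17 overlaps the gene AT3G17800, and since the use of strand in counting is not stated, reads of the 2 genes may have been mixed.

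Of the 4 senescence markers tested, 1 was called in CRISPR/Cas plants, 0 in GLDT::5'truncatedNAC052 plants and 3 in GLDT::NAC052 plants, beside 23.8%, 5.83% and 34.3% of all tested genes in that order. SAG13, a senescence-associated gene, rose in CRISPR/Cas plants, with 64.9, 45.4 and 59.4 CPM against 3.47, 1.31 and 1.33 CPM in reference plants (log2 fold change 4.78, edgeR adjusted p = 0.000176). In GLDT::NAC052 plants SAG13 was at 4.30, 2.70 and 12.6 CPM and overlapped the reference line. Its log2 fold change there of 1.67 (adjusted p = 0.0299) was 0.77 (adjusted p = 0.245) without GLDT::NAC052 replicate 3, and the call was also lost without reference replicate 2 (0.108) or 3 (0.104). ORE1, a NAC factor that promotes senescence, was at a mean of 0.906 CPM in CRISPR/Cas plants and 1.19 CPM in reference plants. In GLDT::NAC052 plants ORE1 was called higher (log2 fold change 1.74, edgeR adjusted p = 0.0215). That call was lost without GLDT::NAC052 replicate 1 or 3 or reference replicate 2 or 3 (adjusted p up to 0.0803). NYE1, another of these markers, also rose there (0.52, adjusted p = 0.00335) and kept its call whichever library was left out. The 6 senescence markers summed to between 25.7 and 34.3 CPM in activation-tagged plants, between 88.3 and 125 CPM in CRISPR/Cas plants, between 33.9 and 54.4 CPM in GLDT::5'truncatedNAC052 plants, between 41.5 and 86.1 CPM in GLDT::NAC052 plants and between 29.5 and 37.6 CPM in reference plants. SAG12, the marker most specific to leaf senescence, had 0 counts in all 15 libraries, and SAG29 had at most 3. The part of senescence in the PAP17 values was not tested.

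PS2 (AT1G73010, chromosome 1, 27464528 to 27466348), a phosphatase that splits pyrophosphate, was close to the floor. It was at 0.22, 0.24 and 0.76 CPM in activation-tagged plants, at 0, 0.38 and 0.03 CPM in CRISPR/Cas plants, at 0.35, 0.50 and 0.11 CPM in GLDT::5'truncatedNAC052 plants, at 0.35, 0.28 and 0.25 CPM in GLDT::NAC052 plants, and at 0.03, 0.12 and 0.36 CPM in reference plants. All 5 lines overlapped, and the interval for the CRISPR/Cas line over the reference line, from -2.35 to 1.87 on the log2 scale, includes a 2-fold difference in either direction, so that one of that size was not detectable at this depth. CRISPR/Cas replicate 2 held 16 of the 17 PS2 counts of its line. Without that library PS2 was called lower in CRISPR/Cas than in GLDT::5'truncatedNAC052 plants (-4.27, edgeR adjusted p = 0.0381). The same held against GLDT::NAC052 plants (-4.16, adjusted p = 0.0291). With all libraries neither was called (adjusted p = 0.399 and 0.408).

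Of the 3 lipid genes among the members, MGD3 and SQD2 were called in at least 1 line against the reference line, each time lower. MGD3 (AT2G11810, chromosome 2, 4743162 to 4746813), a synthase of monogalactosyldiacylglycerol that starvation normally induces, fell in GLDT::NAC052 plants. It was at 0.48, 0.18 and 0.18 CPM there and at 1.16, 0.97 and 0.68 CPM in reference plants, without overlap (log2 fold change -1.74, SE 0.429, edgeR adjusted p = 0.00692). Without GLDT::NAC052 replicate 2 it was -1.51 (adjusted p = 0.0282). The GLDT::5'truncatedNAC052 line, with 0.43, 0.33 and 0.22 CPM, also lay below every reference library, and its log2 fold change of -1.51 (SE 0.425) did not pass edgeR's test (adjusted p = 0.0524) but passed with DESeq2 (-1.52, adjusted p = 0.0185) and with limma voom (-1.52, adjusted p = 0.0461). In CRISPR/Cas plants, with 0.53, 0.63 and 0.43 CPM and again below every reference library, the value was -0.82 (SE 0.405, edgeR adjusted p = 0.159). The activation-tagged line, in the same lane as the reference line, was at 1.17, 0.83 and 0.67 CPM. It overlapped the reference line (log2 fold change -0.08, SE 0.398, adjusted p = 0.944). For the lines below the reference line, lane and line cannot be told apart. MGD3 rested on between 7 and 42 counts per library.

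SQD2 (AT5G01220, chromosome 5, 86543 to 90117) makes sulfoquinovosyldiacylglycerol, the sulfolipid of the thylakoid membrane, and had the highest level of the 10 in CPM as well as per kilobase of exon. It was at 38.7, 49.7 and 32.6 CPM in GLDT::NAC052 plants and at 49.2, 48.5 and 40.1 CPM in GLDT::5'truncatedNAC052 plants, against 57.7, 68.2 and 69 CPM in reference plants. Both lines lay wholly below the reference line. SQD2 fell by 0.69 on the log2 scale in GLDT::NAC052 plants (SE 0.133, edgeR adjusted p = 0.00162), and by 0.86 without its replicate 2 (adjusted p = 0.000329). In GLDT::5'truncatedNAC052 plants it fell by 0.50 (SE 0.132, adjusted p = 0.0419), a call that was lost whichever of the 6 libraries was left out, with adjusted p between 0.0588 and 0.14. The activation-tagged line (59.9, 68.3 and 63.8 CPM) and the CRISPR/Cas line (55.4, 57.0 and 61.0 CPM) overlapped the reference line.

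In GLDT::NAC052 plants, which had the most calls among the lipid genes, 4 of the 6 leaf markers, RBCS1A, RCA, CA1 and GAPA, also fell, beside 17.3% of all tested genes called lower there. The CA1 and GAPA calls were lost without GLDT::NAC052 replicate 3 (adjusted p = 0.133 and 0.11) or reference replicate 3 (0.106 and 0.0618), and also without reference replicate 2 for CA1 (0.0809) and reference replicate 1 for GAPA (0.0592). The other calls were RBCS1A (log2 fold change -0.57, edgeR adjusted p = 0.00773), a subunit of Rubisco, and RCA, its activase (-0.66, adjusted p = 0.00657). In CRISPR/Cas plants, where SQD2 overlapped the reference line, all 6 leaf markers had a negative log2 fold change (median -0.31). Of them 2 were called, beside 12.8% of all tested genes called lower. These were CA1 (-1.03, edgeR adjusted p = 0.00348) and LHCB2.1 (-0.65, adjusted p = 0.00836). Both kept the call whichever library was left out. The part of a lower share of such leaf marker transcripts in the SQD2 value was not tested. In whole rosettes, fewer cells of a type and less RNA per cell cannot be told apart.

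PLDZ2 (AT3G05630, chromosome 3, 1635194 to 1640357), a phospholipase D that breaks down phospholipids under starvation, was at 1.33, 1.61 and 1.17 CPM in activation-tagged plants, below every library of the reference line at 2.25, 2.83 and 2.21 CPM. This log2 fold change of -0.83 (SE 0.235) did not pass the test of edgeR (adjusted p = 0.0686). The other lines overlapped the reference line, with log2 fold changes of -0.13 in CRISPR/Cas plants, 0.05 in GLDT::5'truncatedNAC052 plants and 0.26 in GLDT::NAC052 plants. PLDZ2 overlaps AT3G05640, so that its counts carry the same uncertainty as those of PAP17.

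**Figure D2:**
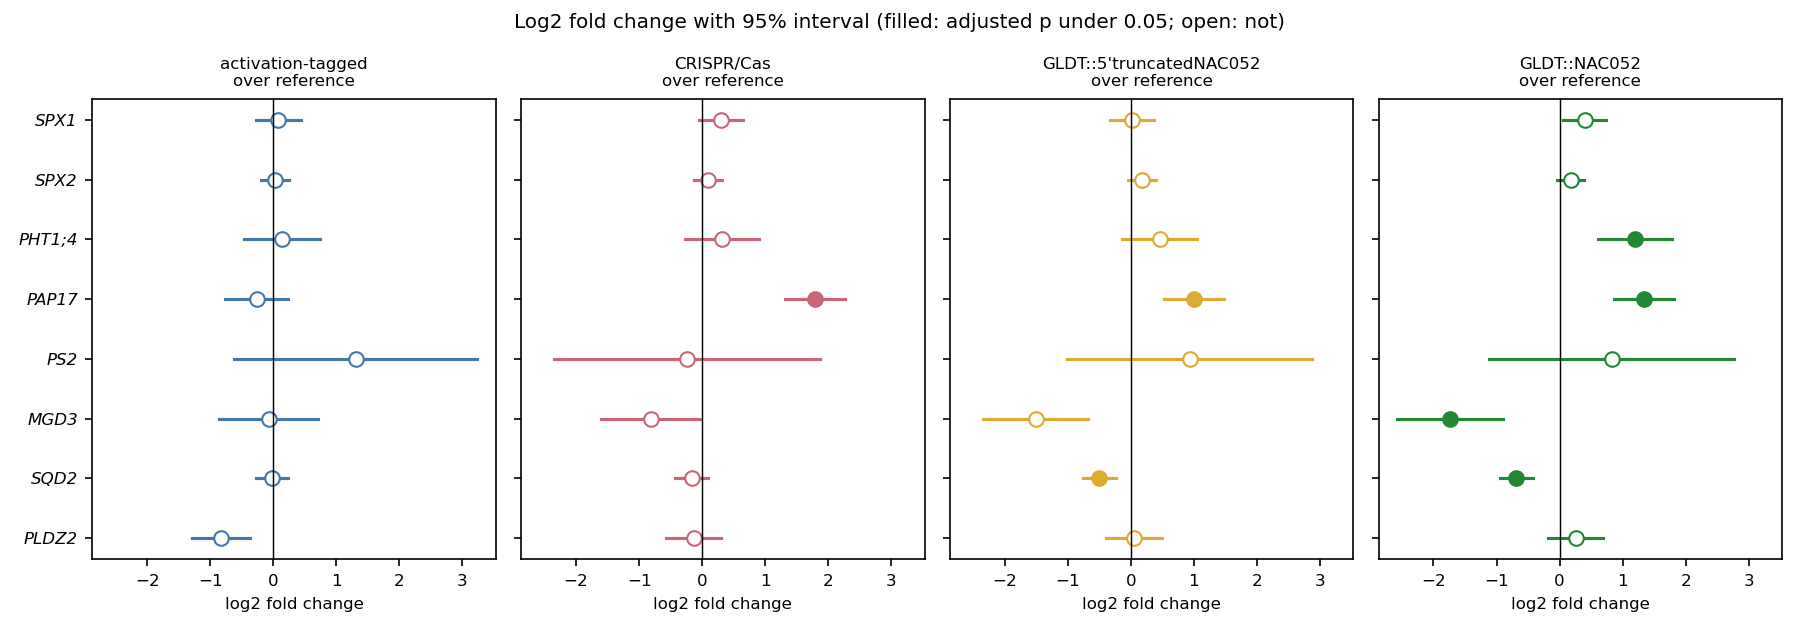
Log2 fold change of the 8 tested members (vertical axis) in each line over the reference line, with approximate 95% intervals as horizontal bars. Filled points passed edgeR's test and open points did not. The activation-tagged panel has no filled point, and the GLDT::NAC052 panel has filled points on both sides of 0, with PHT1;4 at 1.19 and PAP17 at 1.34 to the right and MGD3 at -1.74 and SQD2 at -0.69 to the left.

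Taken line by line, no line showed the 8 tested members moving one way. In activation-tagged plants 0 of 8 passed edgeR's test, where 3.65% of all tested genes did. At an unadjusted p under 0.05 the count there was 1, DESeq2 called 1 and limma voom called 0. In CRISPR/Cas plants 1 of 8 passed, PAP17, against a background of 23.8%. In GLDT::5'truncatedNAC052 plants 2 of 8 passed, one in each direction, against 5.83%. DESeq2 called 3 there, MGD3 being the third, and limma voom called 2, SQD2 and MGD3 but not PAP17. In GLDT::NAC052 plants 4 of 8 passed, 2 higher and 2 lower, against 34.3%. With a 2-fold minimum added, the members called numbered 0 in activation-tagged plants (1.14% of all tested genes), 1 in CRISPR/Cas plants (6.73%), 1 in GLDT::5'truncatedNAC052 plants (0.941%) and 3 in GLDT::NAC052 plants (8.21%). Members whose libraries all lay above the reference libraries numbered 0 in activation-tagged plants (14.9% of all tested genes), 1 in CRISPR/Cas plants (23.8%), 1 in GLDT::5'truncatedNAC052 plants (12.6%) and 4 in GLDT::NAC052 plants (23%). Those whose libraries all lay below numbered 1 in activation-tagged plants (12.5%), 1 in CRISPR/Cas plants (23.5%), 2 in GLDT::5'truncatedNAC052 plants (12.9%) and 2 in GLDT::NAC052 plants (24%). Over the 8 members the median log2 fold change was -0.00 in activation-tagged plants, -0.02 in CRISPR/Cas plants, 0.12 in GLDT::5'truncatedNAC052 plants and 0.33 in GLDT::NAC052 plants, where the median over all tested genes lay between -0.01 and 0.01. All 4 comparisons share the same 3 reference libraries.

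Within lane 8 the lines could be set against each other. PAP17 was higher in CRISPR/Cas plants than in GLDT::5'truncatedNAC052 plants (log2 fold change 0.78, SE 0.229, edgeR adjusted p = 0.0207), without overlap, and it was the only one of 8 members called, against a background of 28.6%. That call was lost without CRISPR/Cas replicate 1 or 2 or GLDT::5'truncatedNAC052 replicate 1 or 2, with adjusted p between 0.0515 and 0.0783. PHT1;4 was lower in CRISPR/Cas plants than in GLDT::NAC052 plants (-0.87, SE 0.293, adjusted p = 0.0277), a call lost without CRISPR/Cas replicate 2 or 3 or GLDT::NAC052 replicate 1 or 3, with adjusted p between 0.0579 and 0.108. SQD2 was higher in CRISPR/Cas plants than in GLDT::NAC052 plants (0.52, SE 0.133, adjusted p = 0.00647) and kept its call without any single library. These were 2 of 8 members, against a background of 41.4%. For GLDT::NAC052 over GLDT::5'truncatedNAC052 plants 0 of 8 members were called by edgeR, against a background of 8.54%, with 2 at an unadjusted p under 0.05 and 0 by DESeq2 or limma voom. With the 2-fold minimum, 0 members were called within lane 8, where 8.08% of all tested genes passed for the CRISPR/Cas over the GLDT::5'truncatedNAC052 line, 1.75% for the GLDT::NAC052 over the GLDT::5'truncatedNAC052 line and 12.9% for the CRISPR/Cas over the GLDT::NAC052 line. For PAP17 the difference of GLDT::NAC052 over GLDT::5'truncatedNAC052 plants was 0.33, with an interval from -0.12 to 0.78.

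Per kilobase of exon, levels averaged over the 15 libraries ran in the order SQD2 (24 CPM per kilobase), SPX2 (8.97), SPX1 (3.71), PAP17 (1.90), PHT1;4 (1.41), PLDZ2 (0.65), MGD3 (0.308), PS2 (0.203), SPX3 (0.0412) and IPS1 (0.00578). In that average PAP17 stood above PHT1;4, whereas in activation-tagged plants PAP17 averaged 0.811 and PHT1;4 1.11 CPM per kilobase, and in reference plants PAP17 averaged 0.970 and PHT1;4 1.01. SQD2 stood above 80.9% of tested genes and MGD3 above 5.46%. Over the 15 libraries the ranges of neighbours in this order overlapped from SPX1 (2.86 to 5.07 CPM per kilobase) and PAP17 (0.592 to 3.90) downward, through every pair to SPX3 and IPS1. SQD2, SPX2 and SPX1 did not overlap one another.

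Pairs of members moved in opposite directions across the libraries as often as in the same one. Of the 28 pairs of tested members, 14 had a positive and 14 a negative Pearson's r of log2 CPM over the 15 libraries, with a median of -0.04, given as a description because the libraries share lines and lanes. The gene whose pattern was most like that of PAP17 was GSTU11, a glutathione S-transferase (r = 0.94), and for SQD2 it was CHLI2, a subunit of the magnesium chelatase of chlorophyll synthesis (r = 0.98).

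A wider list of 60 genes of the phosphate pathway was read in the same way. Of these, 17 did not pass the filter on low counts, 14 had at most 3 counts in every library, and 5 were at 0 throughout. At4, a relative of IPS1 with the same role, had 92 counts in all and at most 20 in a library, in activation-tagged replicate 2, and fell short of the filter. Of the 43 genes tested, 4 rose and 1 fell in activation-tagged plants, 11 rose and 9 fell in CRISPR/Cas plants, 3 rose and 1 fell in GLDT::5'truncatedNAC052 plants, and 15 rose and 8 fell in GLDT::NAC052 plants. The shares called were 11.6%, 46.5%, 9.3% and 53.5% in that order of lines, beside 3.65%, 23.8%, 5.83% and 34.3% of all tested genes, and in the same order 1.9%, 11%, 2.8% and 17% of all tested genes were called higher and 1.74%, 12.8%, 3.03% and 17.3% lower. The median log2 fold changes over the 43 genes lay between -0.04 and 0.13. Of the genes described next, those called in GLDT::NAC052 plants kept the call without replicate 2, the library low in NAC052, except NLA, with 2.79 for ZAT6, -2.59 for PHO1;H1, 1.73 for G3Pp1, 0.89 for MGD1, 2.46 for RNS1 and 1.72 for SEN1. Without GLDT::5'truncatedNAC052 replicate 1, the values were 1.24 for SEN1 (adjusted p = 0.0396), 0.66 for PPCK1 (0.0142) and 0.63 for DGD1 (0.0219).

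**Figure D3:**
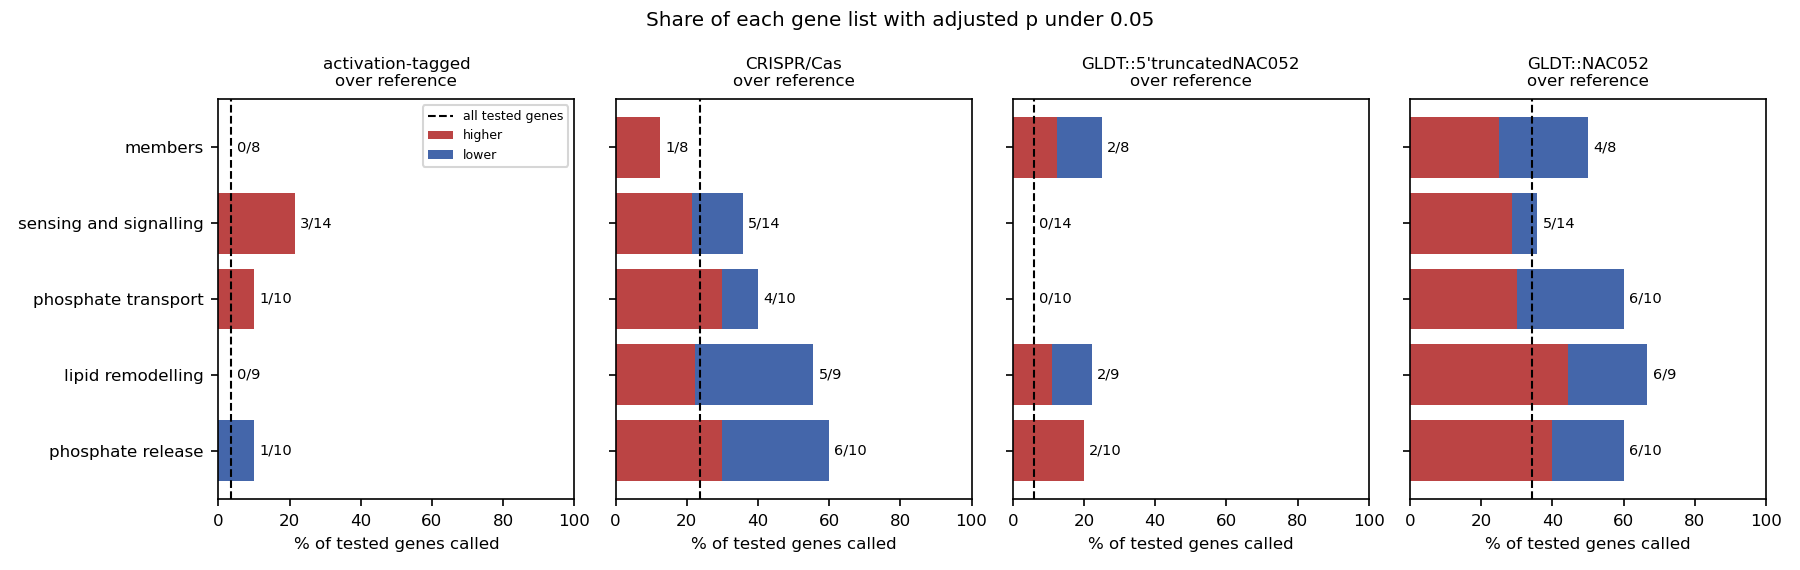
Share of the tested genes of each list, in percent, that passed edgeR's test in each line over the reference line, split into higher and lower genes, with the numbers called and tested beside each bar. The dashed line is the share over all tested genes, 3.65%, 23.8%, 5.83% and 34.3% from the left panel to the right one. The legend stands in the left panel, and in the CRISPR/Cas and GLDT::NAC052 panels the 4 pathway lists each hold both colours. The list for phosphate release also holds SEN1 and PPCK1, which are not phosphate-releasing enzymes.

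Of the list for sensing and signalling, 14 of 18 genes were tested, and 3 rose in activation-tagged plants, 3 rose and 2 fell in CRISPR/Cas plants, and 4 rose and 1 fell in GLDT::NAC052 plants. ZAT6, a zinc finger factor of phosphate homeostasis, rose in GLDT::NAC052 plants, at 21.4, 26.8 and 51.1 CPM against 5.08, 4.61 and 6.03 CPM in reference plants (log2 fold change 2.66, SE 0.356, edgeR adjusted p = 0.000154). HHO3, a GARP-type transcription factor related to HRS1, rose in CRISPR/Cas plants (0.65, adjusted p = 0.00331) and in activation-tagged plants (0.69, adjusted p = 0.0114), where the call was lost without activation-tagged replicate 2 or reference replicate 2 or 3, at adjusted p of 0.0508 to 0.0514. NLA, a ubiquitin ligase that acts on PHT1 transporters, fell in CRISPR/Cas plants (-0.72, adjusted p = 0.0164, but 0.0717 without CRISPR/Cas replicate 1 and 0.0749 without reference replicate 2) and rose in GLDT::NAC052 plants (0.62, adjusted p = 0.0221), where without replicate 2 it was 0.43 (adjusted p = 0.102), and where the call was also lost without reference replicate 1 (0.0867) or 3 (0.0694). SPX4, a further SPX protein that restrains PHR1, fell in CRISPR/Cas plants, at 8.11, 6.58 and 7.26 CPM against 10.9, 9.81 and 9.76 CPM in reference plants (-0.47, adjusted p = 0.0272), a call lost without any 1 library except CRISPR/Cas replicate 1 (adjusted p up to 0.109). PHR1, the central activator, was called only in activation-tagged plants among the 4 comparisons, where it rose by 0.40 on the log2 scale (adjusted p = 0.00686). WRKY75, a regulator of both phosphate responses and senescence that was singled out after its values were seen, had 74, 43 and 86 counts in CRISPR/Cas plants and 13, 8 and 41 in GLDT::NAC052 plants, against 1, 0 and 0 in reference plants.

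Of the transport list, 10 of 18 genes were tested, and 1 rose in activation-tagged plants, 3 rose and 1 fell in CRISPR/Cas plants, and 3 rose and 3 fell in GLDT::NAC052 plants. PHO1;H1, an exporter related to PHO1 that starvation is known to induce, fell in GLDT::NAC052 plants, at 0.226, 0.514 and 0.406 CPM against 1.16, 1.62 and 3.02 CPM in reference plants (log2 fold change -2.32, SE 0.49, edgeR adjusted p = 0.00276). It was higher in CRISPR/Cas plants (1.34, adjusted p = 0.0318), though the libraries overlapped and the call was lost without CRISPR/Cas replicate 2 or 3 or reference replicate 1 or 2 (adjusted p up to 0.113). G3Pp1, a glycerol-3-phosphate permease, rose in CRISPR/Cas plants, at 10.6, 13.5 and 11.4 CPM, and in GLDT::NAC052 plants, at 11.9, 18.1 and 19.0 CPM, against 3.27, 4.48 and 6.23 CPM in reference plants. These were log2 fold changes of 1.35 (adjusted p = 0.000935) and 1.81 (adjusted p = 8.46e-05). PHO1, which loads phosphate into the xylem, fell by 0.67 in CRISPR/Cas plants (adjusted p = 0.0299), a call lost without any 1 library except reference replicate 1 (adjusted p up to 0.11).

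Of the list for lipid remodelling, 9 of 10 genes were tested, and 2 rose and 3 fell in CRISPR/Cas plants, 1 rose and 1 fell in GLDT::5'truncatedNAC052 plants, and 4 rose and 2 fell in GLDT::NAC052 plants. MGD1, the main galactolipid synthase of the chloroplast outside starvation, rose in GLDT::NAC052 plants, at 208, 296 and 280 CPM against 107, 144 and 144 CPM in reference plants (log2 fold change 0.99, SE 0.134, edgeR adjusted p = 0.000169). MGD2, which like MGD3 is a starvation-type synthase, fell there by 1.13 (adjusted p = 0.0096, and 0.0534 without reference replicate 1). In CRISPR/Cas plants MGD2 fell by 0.91 (adjusted p = 0.0363) and MGD1 by 0.41 (adjusted p = 0.0397), and both kept their direction whichever library was left out, between -1.04 and -0.63 for MGD2 and between -0.54 and -0.34 for MGD1. The MGD2 call was lost without any 1 CRISPR/Cas library or reference replicate 1 (adjusted p up to 0.16), and the MGD1 call without any 1 CRISPR/Cas library or reference replicate 2 or 3 (up to 0.139). DGD1, which converts monogalactosyl- to digalactosyldiacylglycerol, rose in CRISPR/Cas plants (0.48, adjusted p = 0.0058), the GLDT::5'truncatedNAC052 line (0.64, adjusted p = 0.00644) and the GLDT::NAC052 line (0.75, adjusted p = 0.000212). It averaged 31.0 CPM in activation-tagged plants and 37.3 CPM in reference plants, which shared a lane. For the lines where DGD1 rose, lane and line cannot be told apart. SQD1, the enzyme before SQD2 in sulfolipid synthesis, fell by 0.67 in GLDT::NAC052 plants (edgeR adjusted p = 0.00028). It was called higher in CRISPR/Cas plants (0.31, adjusted p = 0.0323) and lower in GLDT::5'truncatedNAC052 plants (-0.36, adjusted p = 0.0461). The CRISPR/Cas call was lost without any 1 library except reference replicate 3 (adjusted p up to 0.138). The GLDT::5'truncatedNAC052 call was lost without any 1 library except reference replicate 2 (up to 0.171).

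Of the list for phosphate release, 10 of 14 genes were tested, and 1 fell in activation-tagged plants, 3 rose and 3 fell in CRISPR/Cas plants, 2 rose in GLDT::5'truncatedNAC052 plants, and 4 rose and 2 fell in GLDT::NAC052 plants. The list also holds SEN1 and PPCK1, described below, which are not phosphate-releasing enzymes. These were the 2 that rose in GLDT::5'truncatedNAC052 plants, and both were among the 4 in GLDT::NAC052 plants. RNS1, a secreted ribonuclease, was at 0.348, 1.49 and 0.0293 CPM in activation-tagged plants, at 34.9, 67.8 and 54.2 CPM in GLDT::NAC052 plants and at 3.8, 11.8 and 8.73 CPM in reference plants. It fell by 3.82 on the log2 scale in activation-tagged plants (SE 0.733, edgeR adjusted p = 0.0133), a call lost without activation-tagged replicate 1 (adjusted p = 0.0587) or 3 (0.0532) and with limma voom (-4.80, adjusted p = 0.107). With 1 library left out the fall ranged from -5.44, without activation-tagged replicate 2, to -3.19. RNS1 rose in GLDT::NAC052 plants (2.69, SE 0.55, adjusted p = 0.00228). SEN1, a gene of dark and senescence responses that also responds to low phosphate, was at 84.0, 38.6 and 76.8 CPM in CRISPR/Cas plants and at 992, 534 and 850 CPM in GLDT::NAC052 plants, against 328, 250 and 261 CPM in reference plants. It fell in CRISPR/Cas plants (-2.07, adjusted p = 0.00027) and rose in GLDT::NAC052 plants (1.5, adjusted p = 0.000899) and in GLDT::5'truncatedNAC052 plants (1.2, adjusted p = 0.021, but up to 0.0811 without GLDT::5'truncatedNAC052 replicate 2 or reference replicate 2 or 3). PPCK1, a kinase of phosphoenolpyruvate carboxylase, rose in GLDT::5'truncatedNAC052 plants (0.69, adjusted p = 0.00441), in GLDT::NAC052 plants (0.83, adjusted p = 6.08e-05) and in CRISPR/Cas plants (0.34, adjusted p = 0.0187, but up to 0.0874 without CRISPR/Cas replicate 1 or reference replicate 1 or 3). It averaged 54.4 CPM in activation-tagged plants and 47.8 CPM in reference plants, which shared a lane. For the lines where PPCK1 rose, lane and line cannot be told apart.

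**Figure D4:**
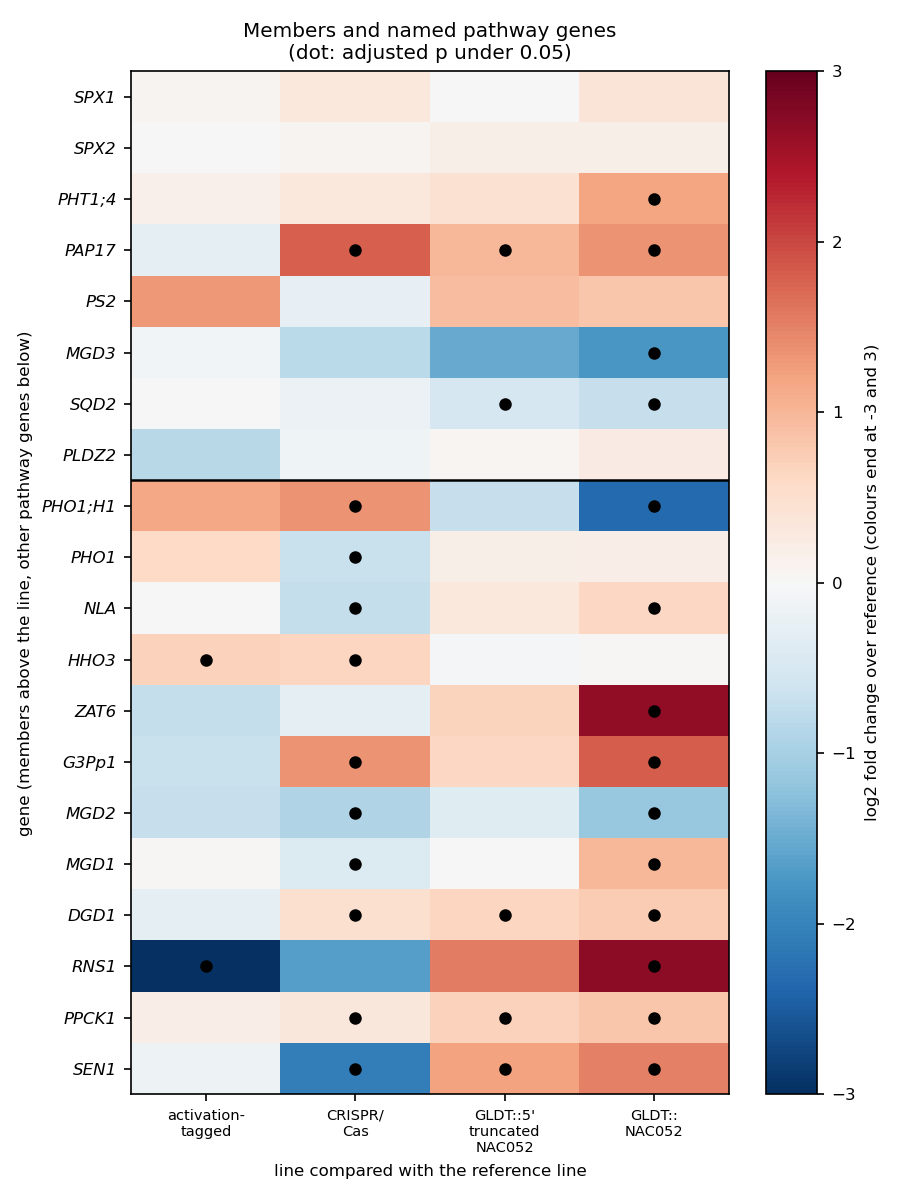
Log2 fold change over the reference line (colour, red higher and blue lower) of the 8 tested members, above the black line, and of the 12 pathway genes named by rule, below it, in the 4 other lines. A dot marks edgeR adjusted p under 0.05. SEN1 is lower in the CRISPR/Cas column (-2.07) and higher in the GLDT::NAC052 column (1.5), and RNS1 (-3.82) lies past the end of the colour scale in the activation-tagged column.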

How the data were processed

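The deposited table held raw gene counts that the authors made from single-end stranded mRNA libraries by mapping to TAIR10 in CLC Genomics Workbench. Whether counting used strand is not given in the sources used here. The 15 columns of described samples were used, and 6 further columns belong to no described sample and were left out. Counts were filtered (filterByExpr, which kept genes reaching 10 counts, rescaled to the median library, in 3 libraries and 15 counts over all), scaled by TMM and fitted together with edgeR 4.0.16 (quasi-likelihood test, Benjamini-Hochberg adjustment over 19663 genes). A gene was called at an adjusted p under 0.05. Errors are SD over 3 libraries or the SE of the fit. The p-values of the main fit set each difference against the spread between labelled biological replicates, estimated from all 15 libraries together.

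Alternatives were DESeq2 1.42.0, limma voom 3.58.1, median-of-ratios scaling, library totals alone, no filter, a 2-fold minimum, fits of only the 6 libraries compared, a replicate block and leaving out each library. The procedure was tested on simulated data. Named pathway genes were up to 12 with the largest change among those called against the reference line at a mean of at least 1 CPM. PHR1, SPX4, SQD1, At4, WRKY75 and the PHT1 relatives, and the markers SAG13, ORE1, NYE1, PYK10, RBCS1A, RCA, CA1, GAPA and LHCB2.1, were named after their values were seen. The members and lists were chosen with earlier results of these data known.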

Additional observations from a re-analysis of the deposited data

Results flagged for a closer look

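These 3 members differed between lines sequenced in the same lane, in a direct test of one line's departure from the reference line against another's. PAP17 was higher in the CRISPR/Cas line than in the GLDT::5'truncatedNAC052 line by 0.783 on the log2 scale. PHT1;4 had a log2 difference of -0.875 between the CRISPR/Cas line and the GLDT::NAC052 line. SQD2 was higher in the CRISPR/Cas line than in the GLDT::NAC052 line by 0.519. With 1 library left out, the PAP17 call was kept in 2 of 6 fits, the PHT1;4 call in 2 of 6 and the SQD2 call in 6 of 6. With 3 libraries in each line, no other test for a single outlying library was made.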

How the results depend on the processing

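The members called numbered 1 for the CRISPR/Cas over the reference line under every alternative run, and 3 to 6 for the GLDT::NAC052 over the reference line, with 6 under library totals alone, where SPX1 and SPX2 passed as well, and 3 with a 2-fold minimum. In activation-tagged plants over the reference line, PLDZ2 was called with library totals alone (1 member) and with DESeq2 (1 member). For the GLDT::5'truncatedNAC052 over the reference line the count was 3 with DESeq2, which added MGD3, 2 with limma voom, which added MGD3 and lost PAP17, 1 with a 2-fold minimum, 0 with only the 6 libraries compared, and 0 to 1 with 1 library left out. For the CRISPR/Cas over the GLDT::5'truncatedNAC052 line it was 0 with a 2-fold minimum, 2 with library totals alone, 2 with only the 6 libraries compared, and 0 to 1 with 1 library left out. For the CRISPR/Cas over the GLDT::NAC052 line it was 0 with a 2-fold minimum, 1 with library totals alone, and 1 to 2 with 1 library left out. Mean CPM over library totals alone was 9.85 for SPX2 and 57.4 for SQD2 in activation-tagged plants, and 12.6 for SPX2 and 63.2 for SQD2 in CRISPR/Cas plants. Library totals alone shifted the all-gene median of log2 fold changes by over 0.1 in activation-tagged plants, to -0.11, in CRISPR/Cas plants, to 0.19, and in GLDT::NAC052 plants, to 0.11. The share of higher calls was then 27.7% rather than 52.2% in activation-tagged plants, 76.7% rather than 46.1% in CRISPR/Cas plants, 68.4% rather than 48.0% in GLDT::5'truncatedNAC052 plants, 64.7% rather than 49.6% in GLDT::NAC052 plants, and 63.2% rather than 46.2% for the CRISPR/Cas over the GLDT::5'truncatedNAC052 line. With limma voom it was 64.2% in activation-tagged plants. Each called log2 fold change was counted once for every setting it was refitted in. Of these refits, 12 lost the call under an alternative and 233 did not, and with 1 library left out 54 lost it and 156 did not. The same fold change enters these counts several times, so that they are not shares of fold changes that held in every setting. The cause was not tested.

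Calls over all genes also varied by more than 1.5 times. Against the reference line they numbered 717 by edgeR and 1400 by DESeq2 in activation-tagged plants, and 1147 by edgeR, 1903 by DESeq2 and 165 with only the 6 libraries compared in GLDT::5'truncatedNAC052 plants. For the GLDT::NAC052 over the GLDT::5'truncatedNAC052 line they numbered 1680, and 15 with only the 6 libraries compared. With a 2-fold minimum the counts were 225, 1324, 185 and 1614 for the 4 lines over the reference line. With 1 library left out the counts ran from 227 to 400 in activation-tagged plants, from 3063 to 3698 (4683 with all) in CRISPR/Cas plants and from 261 to 876 in GLDT::5'truncatedNAC052 plants. For the GLDT::NAC052 over the GLDT::5'truncatedNAC052 line they ran from 329, without GLDT::5'truncatedNAC052 replicate 2, to 3177, without its replicate 3. The percentages of all tested genes set beside the members move with these counts.

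Replicate numbers did not pair the samples throughout. The correlation of same-numbered deviations ranged from -0.09 to 0.44, and in no comparison did every library correlate best with its own number. The 0.44 was that of GLDT::NAC052 replicate 3 with GLDT::5'truncatedNAC052 replicate 3, against at most -0.22 with differently numbered libraries of that line. These libraries thus shared a deviation from their lines, and its cause was not tested. With a replicate block the members called were 3 for the GLDT::5'truncatedNAC052 over the reference line and 3 for the CRISPR/Cas over the GLDT::NAC052 line, MGD3 being the added one in both, and were as many as without it in the other 5 comparisons. MGD3 and PS2 rested on few counts, and the 3 libraries per line limit what could be detected for them.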
